A study of Homo sapiens with 24 samples.

Results

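The genes described here are 60 human genes of nucleolar ribosome biogenesis, taken by symbol from a named list out of 37967 genes with values in the series. Their mRNA was followed in 24 samples of 2 colorectal carcinoma lines, HCT116 and its oxaliplatin-resistant derivative HCT116 oxpl-R, which was selected from HCT116 by repeated pulses of the drug. All samples of both lines carry TetOn-E1A, a doxycycline-switched transgene for the adenoviral protein E1A. Each line was left as control, given 0.5 µg/mL doxycycline (E1A), given 25 µM oxaliplatin for 24 h, or given doxycycline 3 h ahead of oxaliplatin (E1A + oxaliplatin), with 3 samples per group and 8 groups. Doxycycline without the transgene was not among the groups, so the effects of E1A and of doxycycline cannot be told apart, and E1A itself has no row in the human tables.

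Ribosomes are assembled in the nucleolus. RNA polymerase I transcribes the long precursor of ribosomal RNA there, small nucleolar ribonucleoproteins (snoRNPs) modify and help to cut it, and separate sets of assembly factors build the small and the large subunit around it, while abundant chaperones such as nucleophosmin and nucleolin hold the compartment together. The genes fall into 5 roles: RNA polymerase I and its start factors (11 genes), snoRNP proteins and their chaperone (8), assembly of the small subunit (15), assembly of the large subunit (21), and nucleolar chaperones and multifunctional proteins (5). Many of these genes are known as targets of MYC and are highly expressed in proliferating colorectal tumour cells. Oxaliplatin is a platinum drug that forms DNA adducts and is known to disturb ribosome synthesis. The libraries held mRNA, so the values concern the factors and not ribosomal RNA or ribosomes, and in bulk RNA fewer cells of a kind and less RNA per cell cannot be told apart.

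The estimated counts of the samples summed to between 24838095 and 37927720, and the lowest estimated count of any of the 60 genes in any sample was 137 (SDAD1). All 5 epithelial markers checked were present (summed level 5120 to 16300 CPM, counts per 1e6 counts of the library), whereas 4 leukocyte markers summed to at most 2.46 CPM, 3 endothelial markers to at most 0.912 CPM and 4 fibroblast markers to 14.2 to 53.7 CPM. Some libraries stood apart from the other 2 of their group. Over 8863 expressed genes, the log2 deviation from the other 2 libraries had an SD of 0.66 in HCT116 oxaliplatin replicate 3 and 0.64 in HCT116 E1A + oxaliplatin replicate 1, against 0.16 to 0.29 in the 6 HCT116 control and E1A libraries. That SD was 0.54, 0.48 and 0.57 in the HCT116 oxpl-R oxaliplatin libraries and 0.24, 0.35 and 0.4 in the control libraries of that line. In HCT116 oxpl-R, replicate 3 of every group held more DDX18, GNL3 and RRN3 mRNA than the other 2 libraries, for example 104.2 CPM of DDX18 in the control against 29.4 and 18.5 CPM. A symbol with pseudogenes was found for 16 of the 60 genes, and reads of such copies may be shared. The counts of the pseudogenes reached 24.4% of the gene's own in RRN3 and 8.76% in SDAD1, but at most 1.01% in NPM1 despite its 49 pseudogenes.

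Promoter windows were read for sequence motifs. Among the 50 genes with a window in the RefSeq table (GRCh38.p14, 250 bases before to 50 bases after the start), 17 (34%) held the E-box CACGTG, the palindrome to which MYC and related factors bind, against 7.43% of all 27305 promoter windows. Of their 18 E-boxes, 12 (66.7%) lay after the start, at positions 2 to 36 counted from 1 at the first transcribed base, against 11% of the 2255 E-boxes in all windows. The other motifs were read on both strands and counted independently of each other. GGGCGG, the GC box, was in 72.0% of the windows of these genes against 44.6% of all, CCGGAAG, an ETS factor site, in 38% against 10.7%, the palindromic NRF1 site in 6.0% against 1.36%, and TATAAA in 4.0% against 12%. These are matches of letters and not measured binding. The windows of all promoters were taken whatever the expression of the gene, and those of well expressed genes were not read by themselves. POLR1E, TCOF1, NOP58, NOLC1, RRP12, BOP1, DDX18, RPF2, RRP1B and RRS1 had no entry in the table.

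Below stand the windows of RRP9 and PWP2, which rose in HCT116 cells after oxaliplatin and hold an E-box at the start, and of NPM1 and NCL, which fell there and hold none. They are printed 5′ to 3′ on the strand of the gene, from chr3:51941855-51942154 (minus strand), chr21:44107149-44107448 (plus), chr5:171387599-171387898 (plus) and chr2:231464435-231464734 (minus), and capitals mark the E-box.
RRP9: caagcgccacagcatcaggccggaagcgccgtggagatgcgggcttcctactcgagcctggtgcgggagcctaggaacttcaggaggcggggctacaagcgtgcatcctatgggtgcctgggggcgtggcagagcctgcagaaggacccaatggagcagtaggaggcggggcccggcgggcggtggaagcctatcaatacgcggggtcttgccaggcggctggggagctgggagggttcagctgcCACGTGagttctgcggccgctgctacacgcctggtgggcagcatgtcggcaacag
PWP2: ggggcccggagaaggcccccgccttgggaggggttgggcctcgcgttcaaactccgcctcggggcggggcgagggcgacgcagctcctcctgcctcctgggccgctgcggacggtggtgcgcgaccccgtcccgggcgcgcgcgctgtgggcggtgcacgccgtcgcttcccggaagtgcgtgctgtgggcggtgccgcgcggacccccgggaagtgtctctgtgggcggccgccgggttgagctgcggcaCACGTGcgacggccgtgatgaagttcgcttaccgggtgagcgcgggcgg
NPM1: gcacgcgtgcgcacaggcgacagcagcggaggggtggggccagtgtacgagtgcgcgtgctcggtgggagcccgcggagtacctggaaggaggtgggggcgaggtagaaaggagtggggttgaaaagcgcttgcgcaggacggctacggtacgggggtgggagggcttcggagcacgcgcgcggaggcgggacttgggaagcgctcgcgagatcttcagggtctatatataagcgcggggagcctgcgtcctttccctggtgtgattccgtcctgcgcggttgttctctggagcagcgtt
NCL: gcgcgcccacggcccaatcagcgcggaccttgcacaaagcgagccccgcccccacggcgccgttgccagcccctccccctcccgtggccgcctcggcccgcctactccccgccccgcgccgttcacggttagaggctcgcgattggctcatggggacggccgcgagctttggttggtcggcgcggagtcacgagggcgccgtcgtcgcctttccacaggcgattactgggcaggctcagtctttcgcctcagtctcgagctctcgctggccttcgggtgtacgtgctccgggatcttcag
The E-box begins 5 bases before the start in RRP9 and at base 2 after it in PWP2. These windows are examples, and other genes went the other way. LTV1 holds an E-box and fell in HCT116 after oxaliplatin (log2 fold change -1.23), while DDX56 and PPAN hold none and rose.

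The first question was what oxaliplatin did to these genes in sensitive cells. In HCT116, 16 of the 60 genes fell and 6 rose at an adjusted p below 0.05 by edgeR's quasi-likelihood test. This was 36.7% of the genes, against 23.3% of all genes tested and 38.7% of genes with a mean of at least 100 counts, so the share of changed genes was near that of other well expressed genes. The share that fell was 26.7%, against 10.2% of all genes and 17.7% of well expressed genes, and the share that rose was 10.0%, against 13.1% of all genes and 21.0% of well expressed genes. On the second table, from which 6 of the genes were taken, 21.1% of all genes were called. The median log2 fold change (log2FC) of the 60 genes was -0.29, beside 0.02 over all genes tested and -0.07 over the well expressed ones. All 22 changed genes had samples that did not overlap between the groups. Called or not, this held for 36 of the 60 genes, a share of 60% that was near the 59.8% of well expressed genes (39.8% of all genes). With the trend of the counts with transcript GC content and length removed, 12 fell and none of the 60 rose. The summed level of the 54 genes on the count table went from 11042, 11019 and 11096 CPM in the HCT116 control samples to 7818, 8145 and 7729 CPM after oxaliplatin. Such a sum is weighted to abundant genes such as NPM1 and NCL, and 23 of the 60 genes had a log2FC above 0.

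**Figure D1:**
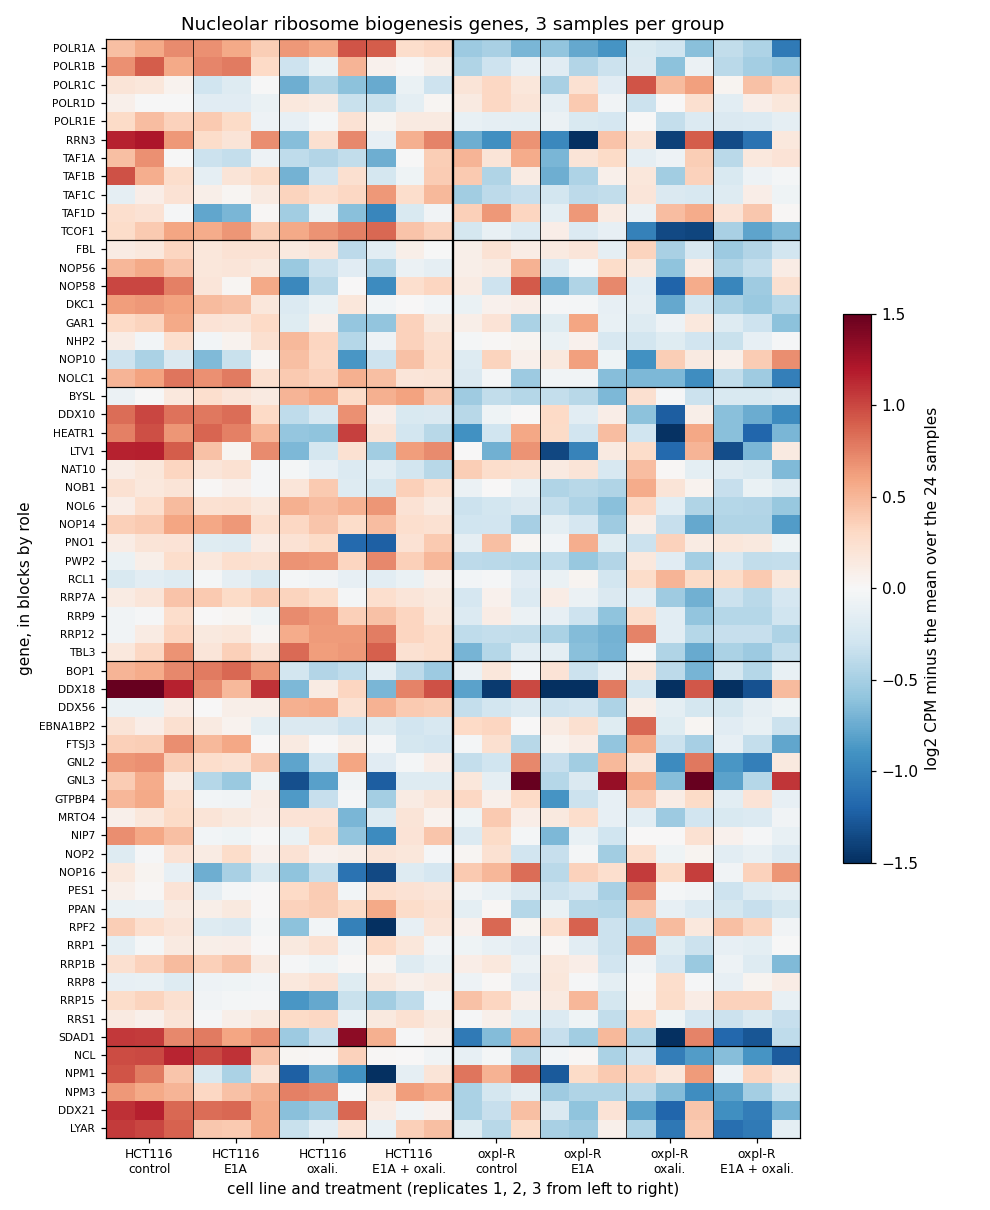
Level of each of the 60 genes (rows, in blocks by role from RNA polymerase I at the top to chaperones at the bottom) in each of the 24 samples (columns, 3 per group), as log2 CPM minus the gene's mean over all samples (red higher, blue lower, colours end at 1.5). HCT116 control samples are red in most rows, and replicate 3 of the HCT116 oxpl-R groups stands out in the rows of DDX18, GNL3 and RRN3.

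Of the 5 chaperones and multifunctional proteins, 3 fell and none of the 5 rose. NPM1, which encodes nucleophosmin (chromosome 5), measured 1996, 1782 and 1390 CPM in HCT116 control samples and 446, 627 and 557 CPM after oxaliplatin. The highest treated sample thus lay well below the lowest control, and the log2FC was -1.59 ± 0.18 (SE, n = 3 per group, adjusted p = 0.000886). NCL, which encodes nucleolin (chromosome 2), measured 1580, 1603 and 1780 CPM in control samples and 824, 811 and 1025 CPM after oxaliplatin, a log2FC of -0.82 ± 0.15 (adjusted p = 0.00406). LYAR, a nucleolar zinc finger protein, also fell (log2FC -1.0 ± 0.17, adjusted p = 0.00349). DDX21, a helicase that links RNA polymerase I transcription to processing, had 84.9, 90.3 and 238.4 CPM after oxaliplatin against 239.5 to 296.6 CPM in control samples and did not pass the test (adjusted p = 0.0934), and its treated replicate 3, from the library that stood apart, was at the control level. NPM3, a nucleoplasmin, had a log2FC of 0.03 ± 0.19.

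Among the genes of RNA polymerase I, 2 of 11 fell and none of the 11 rose. POLR1C, a subunit shared with RNA polymerase III, measured 70.7, 69.6 and 64.1 CPM in control samples and 36.9, 45.1 and 40.1 CPM after oxaliplatin (log2FC -0.67 ± 0.14, adjusted p = 0.00807). TAF1A, a subunit of the promoter factor SL1, fell by 0.85 on the log2 scale (adjusted p = 0.0291). POLR1A, the largest subunit, was at 129.6, 141.0 and 154.9 CPM in control and 148.6, 141.2 and 182.0 CPM in treated samples, groups that overlap (log2FC 0.23 ± 0.14, adjusted p = 0.3). POLR1B, the second largest subunit, had a log2FC of -0.58 ± 0.21 (adjusted p = 0.0779), and RRN3, which makes the polymerase competent to start, one of -0.75 ± 0.30 (adjusted p = 0.104) with overlapping samples. TCOF1, treacle, a scaffold of rRNA gene transcription, measured 156.7, 170.8 and 195.1 CPM in control samples and 193.5, 207.7 and 220.2 CPM after the drug (log2FC 0.29 ± 0.13, adjusted p = 0.161).

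Of the 8 snoRNP genes, 3 fell and none of the 8 rose. NOP58, a core protein of the box C/D snoRNPs that guide methylation of rRNA, measured 123.6, 123.0 and 103.7 CPM in control samples and 30.8, 45.9 and 61.4 CPM after oxaliplatin (log2FC -1.27 ± 0.23, adjusted p = 0.00428). Its partner NOP56 fell by 0.76 on the log2 scale (adjusted p = 0.00406). DKC1, the pseudouridine synthase of the box H/ACA snoRNPs, measured 195.4, 198.7 and 192.1 CPM in control samples and 109.6, 118.0 and 142.7 CPM after the drug (log2FC -0.59 ± 0.14, adjusted p = 0.0126). In all 3 genes each treated sample was below each control sample. FBL, fibrillarin, the methyltransferase that works with NOP56 and NOP58, measured 386.9, 395.7 and 444.4 CPM in control samples and 393.1, 402.1 and 269.0 CPM after oxaliplatin (log2FC -0.13 ± 0.17, adjusted p = 0.582). FBL therefore had 2 treated samples at the control level and a lower one in the library that stood apart. The remaining H/ACA proteins GAR1, NHP2 and NOP10 and the snoRNP chaperone NOLC1 did not pass the test, with log2FC between -0.55 and 0.47.

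The assembly factors of the small subunit were the role with the most increases. RRP9, a protein of the snoRNP that directs early cleavage of the rRNA precursor, measured 136.0, 139.3 and 169.2 CPM in control samples and 230.9, 221.2 and 181.0 CPM after oxaliplatin (log2FC 0.59 ± 0.15, adjusted p = 0.0175). RRP12, which acts in export of the pre-ribosomal particles, measured 76.4, 86.4 and 99.8 CPM in control samples and 117.7, 124.0 and 124.7 CPM after it (log2FC 0.56 ± 0.14, adjusted p = 0.0157). PWP2, of a complex that binds the precursor as it is made, and BYSL, bystin, rose by similar amounts (log2FC 0.54 and 0.52). All of these gains were small beside the losses above, the highest being under 1 on the log2 scale. LTV1, which leaves the small subunit late in assembly, went the other way, from 69.8, 70.4 and 58.8 CPM to 18.9, 25.4 and 36.2 CPM (log2FC -1.23 ± 0.23, adjusted p = 0.00475). The other 10 of the 15 genes did not pass the test, and HEATR1, a scaffold of the early particle, had treated samples at 24.7, 24.4 and 77.7 CPM around control samples at 59.7 to 74.3 CPM.

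Among the 21 assembly factors of the large subunit, 7 fell and 2 rose. DDX18, a helicase, measured 154.0, 158.2 and 116.2 CPM in control samples and 32.1, 56.7 and 65.2 CPM after oxaliplatin (log2FC -1.40 ± 0.25, adjusted p = 0.00393). BOP1, which forms a complex with PES1 that is needed to process the rRNA of the large subunit, went from 411.1, 425.9 and 477.3 CPM to 238.5, 212.8 and 221.6 CPM (log2FC -0.89 ± 0.12, adjusted p = 0.00165). PES1 itself had 328.7, 315.4 and 360.9 CPM in control samples and 385.3, 406.4 and 304.2 CPM after the drug, groups that overlap (log2FC 0.20 ± 0.14, adjusted p = 0.361), so the partners differed in their values. GNL3, nucleostemin (log2FC -0.94), RRP15 (-0.87), GTPBP4 (-0.74), RPF2 (-0.71) and NOP16 (-0.63) were the further genes that fell. The helicase DDX56 rose from 172.9, 173.0 and 201.4 CPM to 269.2, 273.8 and 217.1 CPM (log2FC 0.55 ± 0.14, adjusted p = 0.0183), and PPAN rose by a log2FC of 0.42. The remaining 12 genes, NOP2, RRS1, MRTO4 and RRP1 among them, did not pass.

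**Figure D2:**
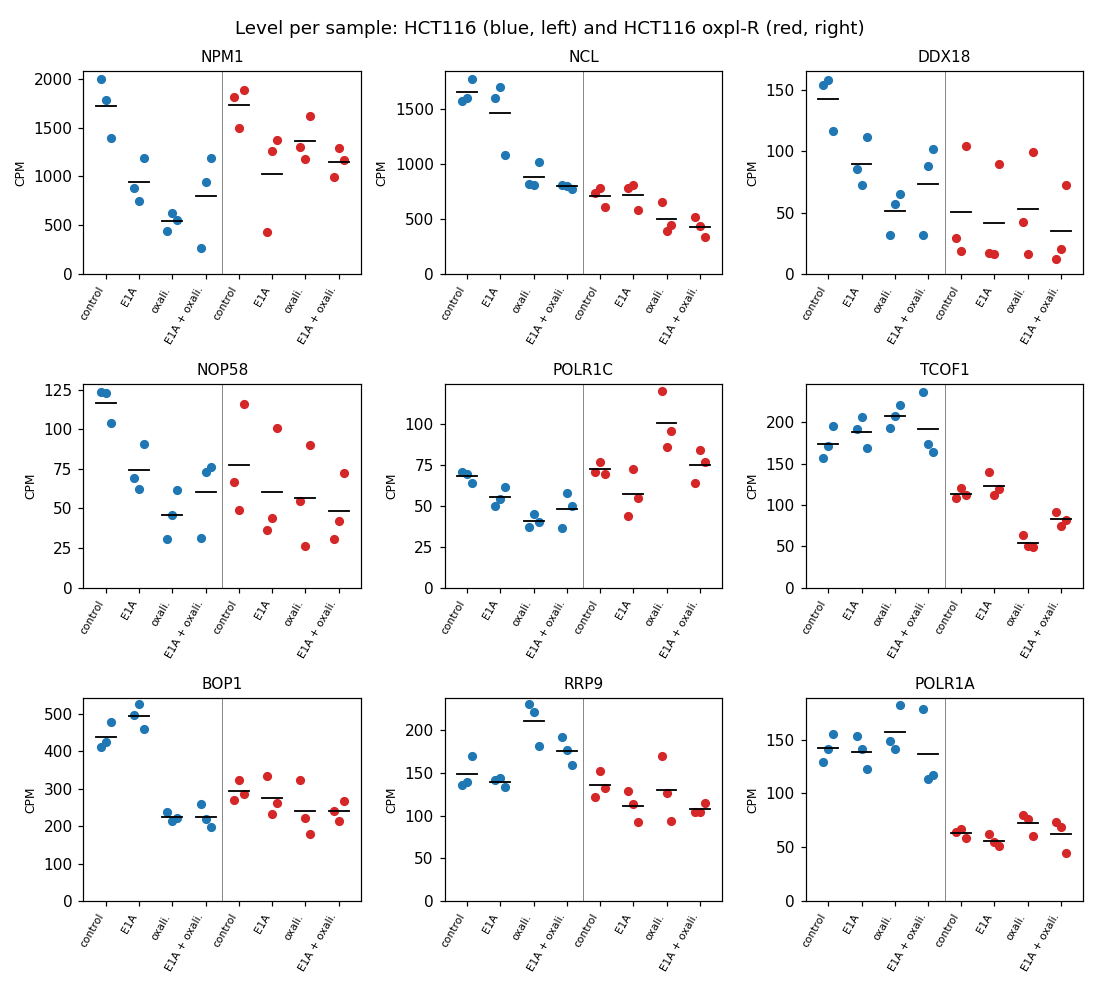
CPM of 9 genes in each sample (points, left to right replicates 1 to 3) with the group mean (line), HCT116 groups in blue and HCT116 oxpl-R groups in red, linear axes from 0. NPM1, DDX18, NOP58 and POLR1C fell in HCT116 after oxaliplatin, RRP9 rose there, TCOF1 fell in HCT116 oxpl-R after oxaliplatin, and POLR1A was lower in HCT116 oxpl-R than in HCT116 both untreated and after oxaliplatin.

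The change in HCT116 went with the base composition of the transcripts. GC content, taken for each gene as the median over its transcripts, ran from 35.1% to 65.9% over the 60 genes, with a median of 50.2%. Of the 30 genes below the median, 13 fell and none of these 30 rose (median log2FC -0.69), while of the 30 above it 3 fell and 6 rose (median 0.17). Across the 60 genes Pearson's r of log2FC with GC content was 0.71, and across 8631 well expressed genes it was 0.66, values that describe genes of the same libraries. Single libraries also deviated from their own group along GC content, with r between -0.66 and 0.63, although the authors' quantification included a correction for GC bias. With the trend of the counts with GC content and length removed, 12 genes fell and none of the 60 rose, and the 12 were BOP1, DDX18, FBL, FTSJ3, LTV1, LYAR, NCL, NOP16, NOP56, NOP58, NPM1 and POLR1C. In that fit BOP1 had a log2FC of -1.55 ± 0.10 (adjusted p = 8.95e-05), NPM1 of -1.0 ± 0.11 (adjusted p = 0.00107) and NCL of -0.44 ± 0.11 (adjusted p = 0.0305). BOP1, with the highest GC content of the 60, thus had a larger loss in that fit, and all 6 increases no longer passed. The part of GC content in the remaining values was not tested.

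**Figure D3:**
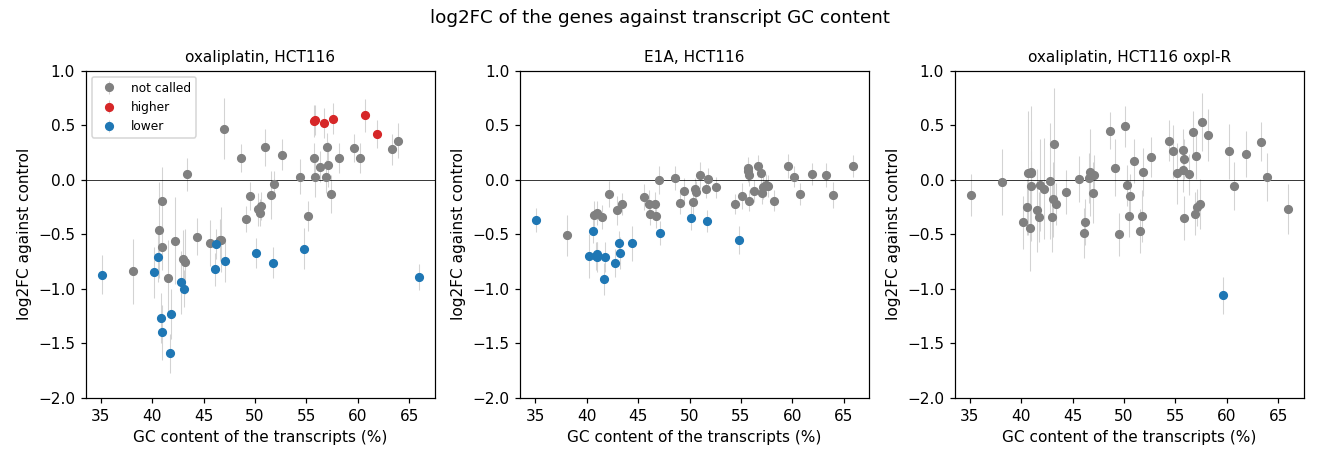
log2FC of each of the 60 genes (points, bars are the SE) against the median GC content of its transcripts in percent, for oxaliplatin and E1A in HCT116 and oxaliplatin in HCT116 oxpl-R, with genes that rose in red, fell in blue and did not pass in grey. Points climb with GC content in both HCT116 panels (r = 0.71 and 0.72), with BOP1 at the far right of the first panel as the exception, and climb little in the HCT116 oxpl-R panel (r = 0.22).

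The promoter groups differed in composition in the same way. Of the 17 genes with an E-box in the window, 3 rose and 1 fell after oxaliplatin (median log2FC -0.04), and of the 33 genes with a window but no E-box, 2 rose and 11 fell (median -0.58). The median transcript GC content of the former was 51.6% and of the latter 46.6%, and the part of composition in the difference was not tested.

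The count of changed genes depended on single libraries. Without HCT116 oxaliplatin replicate 3, which stood apart, 31 of the 60 genes fell and 10 rose, whereas leaving out either HCT116 control replicate 1 or replicate 2 gave 9 genes, all lower, and without HCT116 oxaliplatin replicate 1 the count was 13. NPM1 passed the test under each of the 14 alternatives, with log2FC between -1.72 and -0.99, while RRP9 did not pass in 8, DDX56 in 7 and RRP12 in 6 of them.

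The next question was how resistant cells responded. In HCT116 oxpl-R a single gene of the 60 passed the test after oxaliplatin, TCOF1, against 4.12% of all and 6.79% of well expressed genes of the count table and 4.28% of those of the second table, from which TCOF1 was taken (2.24% when only lower genes are counted). Of the 60 genes 6 had an unadjusted p below 0.05 and DESeq2 called 1. The median log2FC was -0.02, with values from -1.06 to 0.53. TCOF1 measured 108.2, 120.2 and 112.5 CPM in HCT116 oxpl-R control samples and 63.6, 50.2 and 49.4 CPM after oxaliplatin (log2FC -1.06 ± 0.17, adjusted p = 0.00407). The 2 groups were far apart, and the gene passed under each of the 15 alternatives. A second gene passed without HCT116 oxpl-R oxaliplatin replicate 1, which made the count 2. Treacle is known to recruit repair and checkpoint proteins to damaged rRNA genes besides its part in their transcription. NPM1 had 1816, 1498 and 1886 CPM in control samples and 1306, 1174 and 1614 CPM after the drug (log2FC -0.34 ± 0.23, adjusted p = 0.534), with overlap. NCL had 737.9, 785.7 and 607.4 CPM in control and 659.1, 392.1 and 449.8 CPM in treated samples (log2FC -0.49 ± 0.23, adjusted p = 0.333). DDX18 was not past the threshold, with control samples at 29.4, 18.5 and 104.2 CPM and treated samples at 42.8, 16.6 and 99.6 CPM, so replicate 3 was far above the others in both groups.

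An interaction term asked whether the log2FC in HCT116 oxpl-R minus that in HCT116 differs from 0. Of the 60 genes, 3 (5.0%) differed, against 2.44% of all and 4.61% of well expressed genes of the count table and 3.17% of those of the second table. For NPM1, which fell in HCT116, the effect in HCT116 oxpl-R was less negative, a difference of 1.27 ± 0.30 (adjusted p = 0.0326). POLR1C fell in HCT116, whereas in HCT116 oxpl-R it had 70.7, 76.7 and 69.5 CPM in control samples and 120.0, 86.1 and 95.5 CPM after oxaliplatin, where it did not pass by itself (log2FC 0.49 ± 0.19, adjusted p = 0.212). The difference for POLR1C was 1.17 ± 0.23 (adjusted p = 0.013). TCOF1 differed in the other direction, by -1.31 ± 0.23 (adjusted p = 0.00486). DDX18 (difference 1.48 ± 0.77), LTV1 (1.19 ± 0.54) and NOP58 (0.85 ± 0.52) did not pass, and their errors were wide. The TCOF1 difference passed under each of 20 alternatives, that of POLR1C under 16 and that of NPM1 under 11, and with the GC trend removed the values were -1.05 (adjusted p = 0.00464), 1.10 (adjusted p = 0.00812) and 0.80 (adjusted p = 0.0613). A single gene, TCOF1, passed without HCT116 control replicate 1 or 2 or without HCT116 oxaliplatin replicate 1, and 6 genes passed without HCT116 oxaliplatin replicate 3.

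**Figure D4:**
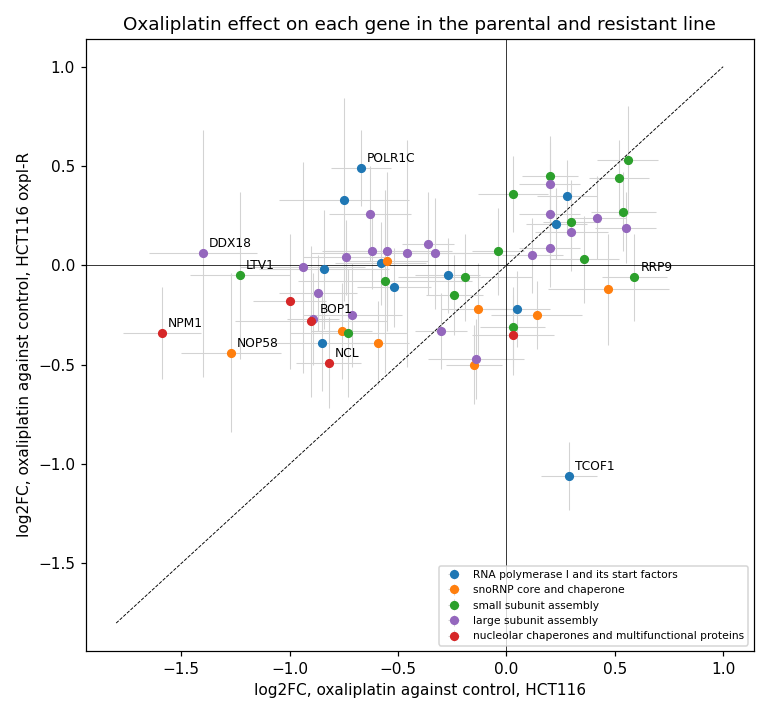
log2FC after oxaliplatin in HCT116 (horizontal) and HCT116 oxpl-R (vertical) for the 60 genes, coloured by role, with SE bars and the dashed line of equal change. NPM1, DDX18, NOP58 and LTV1 lie far left, TCOF1 lies alone at the bottom, and RRP9 lies at the right edge.

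Untreated, the lines already differed in these genes. In HCT116 oxpl-R control samples 27 of the 60 genes were lower than in HCT116 control samples and 2 were higher, 48.3% of the genes, against 28.3% of all genes tested, 44.6% of well expressed genes and 24.1% of the genes of the second table. The share that was lower was 45%, against 14.2% of all and 24.8% of well expressed genes, and the share that was higher was 3.33%, against 14.1% of all and 19.8% of well expressed genes. The median log2FC was -0.40, beside 0.08 over all genes and -0.08 over well expressed ones. Samples did not overlap in 28 of the 29 genes, RRN3 being the exception. Called or not, they did not overlap in 35 of the 60 genes (58.3%, against 40.7% of all and 58.9% of well expressed genes). Without HCT116 oxpl-R control replicate 3, 32 genes were lower and 4 were higher. The summed level of the 54 genes, again weighted to abundant genes such as NCL, was 8127, 8409 and 8628 CPM in HCT116 oxpl-R control samples. The log2FC between the untreated lines was above 0 in 15 of the 60 genes.

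The mRNAs of the catalytic subunits of RNA polymerase I were lower in the resistant line. POLR1A measured 64.2, 67.0 and 58.3 CPM against 129.6, 141.0 and 154.9 CPM in HCT116 (log2FC -1.16 ± 0.11, adjusted p = 7.6e-06), and POLR1B measured 39.1, 43.4 and 49.6 CPM against 87.6, 102.0 and 80.5 CPM (log2FC -1.03 ± 0.13, adjusted p = 7.87e-05). All HCT116 oxpl-R samples lay below all HCT116 samples in both of these catalytic subunits. The smaller shared subunits POLR1C (log2FC 0.09 ± 0.11) and POLR1D (0.20 ± 0.10) did not pass. RRN3 had a log2FC of -1.18 ± 0.33 (adjusted p = 0.0162), but HCT116 oxpl-R control replicate 3, at 86.7 CPM, lay inside the HCT116 range of 85.4 to 125.9 CPM. The RRN3 value was -1.85 without that library and -0.95 (adjusted p = 0.0851) without replicate 1. POLR1E, TAF1C and TCOF1 were lower as well (log2FC -0.50, -0.50 and -0.62).

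Chaperones were lower too, apart from NPM1. NCL measured 737.9, 785.7 and 607.4 CPM in HCT116 oxpl-R against 1580, 1603 and 1780 CPM in HCT116 (log2FC -1.21 ± 0.13, adjusted p = 1.56e-05), and it passed under each of 14 alternatives. DDX21 (log2FC -1.12), LYAR (-1.07) and NPM3 (-0.86) passed likewise, whereas NPM1 had a log2FC of 0.01 ± 0.15. In snoRNPs, DKC1 (log2FC -0.59 ± 0.10) and NOLC1 (-0.88 ± 0.14) were lower, FBL did not pass (-0.06 ± 0.11), and NOP10 was higher, with 187.8, 270.4 and 226.5 CPM against 173.4, 153.8 and 184.8 CPM (log2FC 0.43 ± 0.14, adjusted p = 0.0302). NOP10 lost its call in 9 of 14 alternatives.

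In the small subunit group 10 of 15 genes were lower and none of the 15 was higher, with DDX10 (log2FC -1.06 ± 0.14, adjusted p = 0.000108), LTV1 (-1.0) and HEATR1 (-0.89) lowest. Without HCT116 oxpl-R control replicate 3 the log2FC was -1.4 for LTV1 and -1.37 for HEATR1, and without replicate 1 it was -0.96 (adjusted p = 0.0491) and -0.60 (adjusted p = 0.0798). In the large subunit group 5 of 21 were lower. DDX18 had the largest loss, from 154.0, 158.2 and 116.2 CPM to 29.4, 18.5 and 104.2 CPM (log2FC -1.49 ± 0.44, adjusted p = 0.0228), and over 14 alternatives, of which 7 lost the call, its log2FC ran from -2.55 without HCT116 oxpl-R control replicate 3 to -1.1, with adjusted p up to 0.123. SDAD1, which acts in export of the large subunit, measured 9.55, 12.9 and 31.2 CPM against 44.7, 44.3 and 35.1 CPM (log2FC -1.20 ± 0.32, adjusted p = 0.0126), and 4 of 14 alternatives lost the call, with log2FC from -1.85 without the same library to -0.91 and adjusted p up to 0.0983. NOP16 was the gene of this group that was higher, at 86.8, 93.5 and 118.6 CPM against 73.5, 68.0 and 60.6 CPM (log2FC 0.57 ± 0.13, adjusted p = 0.00612). In contrast to the drug response, r of these differences with GC content was 0.12 over the 60 genes, and with the trend removed 29 genes were lower and 1 higher.

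The lower genes lay on many chromosomes, and 4 chromosomes with several of them are described here, picked after their values were seen. On chromosome 10, 4 of 5 genes (NOLC1, RRP12, NPM3 and DDX21) were lower with a median of -0.86 over the 5, beside -0.29 over 387 other well expressed genes of that chromosome. On chromosome 2, 4 of 7 genes were lower (POLR1A, POLR1B, DDX18 and NCL, median -1.03 over the 7, beside -0.34 over 688 others), and on chromosome 4, 3 of 4 (NOP14, SDAD1 and LYAR, median -0.94, beside -0.31 over 357 others). On chromosome 16, 4 of 5 genes were lower (RRN3, TAF1C, TBL3 and NIP7, median -0.55 over the 5, beside -0.31 over 489 others). On chromosomes 6, 13 and 15 the order was the other way, with medians of -0.18, 0.2 and 0.43 over the 4, 1 and 1 listed genes beside -0.31, -0.22 and -0.31 over the others. On chromosomes 1, 11 and 12 the medians were 0.0, 0.09 and 0.01, beside -0.02, 0.04 and -0.03 over the others. On chromosomes 3, 5, 7, 8, 9, 17, 19, 20, 21, 22 and X the listed genes had the lower median. Chromosome 9, for example, had -0.5 over 3 genes beside 0.01 over 433 others, and chromosome 21 had -0.29 over 3 beside 0.27. Chromosome 3 had 0.16 over 2 genes beside 0.35, and chromosomes 7, 17, 20 and X held 1 listed gene each.

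After oxaliplatin the lines differed in 14 of the 60 genes, of which HCT116 oxpl-R held less of 10 and more of 4 (23.3% of the genes, against 20.7% of all genes tested, 31.6% of well expressed ones and 21.5% on the second table, with 10.9% of all genes lower and 9.77% higher). TCOF1 had the largest difference, at 63.6, 50.2 and 49.4 CPM against 193.5, 207.7 and 220.2 CPM (log2FC -1.95 ± 0.21, adjusted p = 8.92e-05). NOLC1 and NPM3 followed, both with a log2FC of -1.27 (adjusted p = 0.00158 and 0.0036). POLR1A (-1.21) and NCL (-0.91) were lower here as in untreated cells, while POLR1B (-0.46, adjusted p = 0.273) was not past the threshold. The higher genes were NOP16 (log2FC 1.43 ± 0.28, adjusted p = 0.0028), NPM1 (1.25 ± 0.26, adjusted p = 0.00478), POLR1C (1.22 ± 0.22, adjusted p = 0.00201) and TAF1D (0.72). Same-numbered samples deviated together here too, and with the replicate number as a block TAF1D no longer passed (adjusted p = 0.0599), while GNL3 (log2FC 1.19, adjusted p = 0.00762) and RRP15 (0.74, adjusted p = 0.0304) were higher and DDX10 and NOL6 lower, 17 genes in all. The shares above are from the fit without the block, and the share of all genes with it is not given here. NPM1 and POLR1C had log2FC of 0.01 and 0.09 between the untreated lines, and their levels in HCT116 were lower after the drug. Here r with GC content was -0.41 over the 60 genes and -0.33 over 8739 well expressed ones. Above the median GC content 8 genes were lower and 1 higher, and below it 2 were lower and 3 higher. With the trend removed, again 10 were lower and 4 higher. RRP7A, RRP9, TBL3 and TAF1D then lost the call, while DDX10, DKC1 and POLR1B were lower and BOP1 higher. All 6 genes with the largest differences in either direction passed under each of 14 alternatives, but the count of 14 ran from 8 without HCT116 oxpl-R oxaliplatin replicate 3, and 9 without replicate 2 of that group or HCT116 oxaliplatin replicate 1, to 22 without HCT116 oxpl-R oxaliplatin replicate 1.

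The samples given doxycycline address the effect of E1A, which the series names as its subject, although induction of E1A was not checked here. By itself in HCT116 the E1A condition was followed by lower levels of 16 of the 60 genes and higher levels of none (edgeR, 26.7% of the genes, against 9.5% of all genes tested and 16.1% of well expressed genes, or 6.59% and 12.1% when only lower genes are counted, and 5.22% on the second table). The median log2FC was -0.19, beside 0.01 over all genes. NPM1 measured 885.2, 747.5 and 1193 CPM with E1A against 1996, 1782 and 1390 CPM in control samples (log2FC -0.91 ± 0.15, adjusted p = 0.000707). GNL3 measured 50.1, 45.9 and 64.6 CPM against 88.7, 100.4 and 73.9 CPM (log2FC -0.76 ± 0.13, adjusted p = 0.00117), and DDX18 85.6, 72.8 and 111.3 CPM against 154.0, 158.2 and 116.2 CPM (log2FC -0.71 ± 0.14, adjusted p = 0.00276). Each of these genes had all E1A samples below all control samples, as did 14 of the 16. Called or not, samples did not overlap in 21 of the 60 genes (35%, against 22.3% of all and 31.3% of well expressed genes).

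By role, 4 of 11 genes of RNA polymerase I were lower in the E1A condition (POLR1C, RRN3, TAF1A and TAF1D). So were 2 of 8 snoRNP genes (NOP56 and NOP58) and 1 of 15 small subunit factors (LTV1). The rest were 7 of 21 large subunit factors (DDX18, GNL3, GTPBP4, NIP7, NOP16, RPF2 and RRP15) and 2 of 5 chaperones (NPM1 and LYAR). POLR1A, POLR1B, TCOF1, FBL, DKC1 and NCL did not pass, with log2FC between -0.31 and 0.13. BOP1 had 498.4, 525.9 and 458.9 CPM with E1A, beside 411.1, 425.9 and 477.3 CPM in control samples (log2FC 0.13 ± 0.10). GC content went with this contrast too (r = 0.72 over the 60 genes and 0.52 over 8647 well expressed ones, with 14 of the 16 genes below the median GC content), and 12 genes were lower with the trend removed. None of the 60 genes passed when all 24 samples were fitted together, and 7 passed without HCT116 control replicate 1.

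In HCT116 oxpl-R no gene of the 60 passed the edgeR test for E1A, against 0.0755% of all genes, while 2 had an unadjusted p below 0.05 and DESeq2 called 0. NPM1 had 434.8, 1265 and 1371 CPM with E1A against 1816, 1498 and 1886 CPM in control samples, with no overlap but a wide spread (log2FC -0.75 ± 0.37, adjusted p = 0.805). The difference in the E1A effect between the lines passed for none of the 60 genes (0.0164% of all genes, 0 genes at an unadjusted p below 0.05 and 0 by DESeq2), so a difference between the lines in the E1A effect was not detectable here.

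With oxaliplatin present, adding E1A gave no called gene in either line. In HCT116 the edgeR test called 0 of 60 (0.0246% of all genes), 0 had an unadjusted p below 0.05 and DESeq2 called 0, and in HCT116 oxpl-R the numbers were 0 (0.638% of all genes), 3 and 0. In the latter line 6 genes were lower without HCT116 oxpl-R oxaliplatin replicate 2 and 4 without HCT116 oxpl-R E1A + oxaliplatin replicate 3. NPM1 had 262.2, 946.1 and 1188 CPM in HCT116 E1A + oxaliplatin samples beside 445.7, 626.9 and 557.4 CPM with oxaliplatin alone, groups that overlap, and the lowest value came from replicate 1, which stood apart. POLR1C had 36.1, 57.6 and 49.9 CPM beside 36.9, 45.1 and 40.1 CPM.

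Compared among samples with E1A, oxaliplatin lowered 5 of the 60 genes in HCT116 with E1A (8.33%, against 10.0% of all genes in either direction and 4.81% lower, or 16.1% and 7.94% of well expressed genes), and raised none. BOP1 went from 498.4, 525.9 and 458.9 CPM to 258.3, 219.6 and 197.3 CPM (log2FC -1.05 ± 0.18, adjusted p = 0.00256), and passed under each of 14 alternatives. HEATR1 (log2FC -0.78), NCL (-0.78), DDX10 (-0.70) and DDX21 (-0.64) passed as well. NPM1 (log2FC -0.18 ± 0.36) and DDX18 (-0.23 ± 0.30) did not. The count was 20 without HCT116 E1A + oxaliplatin replicate 1 (12 lower, 8 higher), 2 without replicate 3 and 1 without replicate 2 of that group or HCT116 E1A replicate 1 or 2, and with the GC trend removed 1 gene was higher and 3 were lower.

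In HCT116 oxpl-R with E1A, oxaliplatin lowered 2 of the 60 genes (3.33%, against 2.06% of all genes in either direction and 0.948% lower, or 3.49% and 1.65% of well expressed genes), HEATR1 (log2FC -1.08 ± 0.25, adjusted p = 0.0354) and DDX10 (-0.93 ± 0.22, adjusted p = 0.0445). Same-numbered samples deviated together in this comparison, and with the replicate number as a block 9 genes were lower: DDX10, DDX21, DKC1, FBL, HEATR1, NCL, NOLC1, SDAD1 and TCOF1. The shares above are from the fit without the block, and the share of all genes in the block fit is not given here. In that fit NCL had a log2FC of -0.80 ± 0.15 (adjusted p = 1.17e-05) and TCOF1 one of -0.60 ± 0.13 (adjusted p = 0.0174). TCOF1 measured 91.9, 74.7 and 81.7 CPM in E1A + oxaliplatin samples and 139.2, 111.9 and 118.7 CPM with E1A alone, so no sample overlapped. Without the block, no gene passed without HCT116 oxpl-R E1A + oxaliplatin replicate 2 or 3, 1 without HCT116 oxpl-R E1A replicate 1 and 4 without replicate 3 of that group.

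The interaction of E1A and oxaliplatin within a line asks whether the drug response changed with E1A. It was called by edgeR for none of the 60 genes in HCT116 (0.0% of all genes, 12 genes at an unadjusted p below 0.05 and 0 by DESeq2) or in HCT116 oxpl-R (0.0%, 0 and 0). Without HCT116 E1A + oxaliplatin replicate 1, 8 of the 60 genes passed in HCT116, all with a positive term, that is a log2FC after oxaliplatin that was higher with E1A than without. The share of all genes passing in that fit is not given here, so these 8 cannot be set beside it. With all HCT116 samples kept, r of this term with GC content was -0.65 over the 60 genes. Over 8678 well expressed genes it was -0.57, and the part of GC content was not tested.

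A second list of 80 ribosome biogenesis genes outside the 60, of which 77 had values, was tested in the same fits. After oxaliplatin in HCT116 24 fell and 9 rose (42.9%, beside 38.7% of well expressed genes in either direction and 17.7% lower, median log2FC -0.39), and in HCT116 oxpl-R 1 fell and none of the 77 rose (1.3%, beside 6.79%, median -0.01). In the E1A condition 25 were lower in HCT116 (32.5%, beside 16.1% of well expressed genes in either direction and 12.1% lower). None of the 77 was lower in HCT116 oxpl-R in that condition. Between the untreated lines HCT116 oxpl-R held less mRNA of 32 and more of 2 (44.2%, median -0.37). Beside this stood 44.6% of well expressed genes in either direction and 24.8% lower, and 28.3% of all genes in either direction and 14.2% lower. After oxaliplatin 8 were higher and 17 lower (32.5%, beside 31.6% of well expressed genes in either direction and 17.6% lower).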

How the data were processed

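RNA was sequenced from 24 samples, 3 per group as numbered in the labels. The labels name biological replicates without saying which cultures they came from, so p-values measure the spread between these samples. The authors trimmed reads with Trimmomatic, quantified them with Salmon 1.6.0 against a human GRCh38 GENCODE transcriptome with its sequence and GC bias corrections, and deposited estimated counts per gene in 2 tables. The first holds genes in alphabetical order to SETP6 (33113 genes) and was used for 54 genes. The second was used for TAF1A, TAF1B, TAF1C, TAF1D, TBL3 and TCOF1. It is named as TPM, but its columns sum to between 28004261 and 42613322, so its values were read as length-scaled estimated counts. In the first, between 15.9% and 30.4% of all values of a sample, zeros included, were not whole (tolerance 0.0005). Values of both were rounded.

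Counts were tested with edgeR 4.0.16 (R 4.3.3, limma 3.58.1) by TMM scaling and the quasi-likelihood test, 2-sided, on the samples of the groups compared, with Benjamini-Hochberg adjustment over all genes of the table. A gene was called at an adjusted p below 0.05. Levels are TMM-scaled counts per 1e6 counts of the library (CPM), computed in each table by itself. The SE is the log2FC divided by the square root of F. Well expressed genes had a mean of at least 100 counts. DESeq2 1.42.0, RLE scaling, filterByExpr, the second table, a fit of all 24 samples, a replicate block and leaving out each sample were alternatives. Code was tested on simulated data. Summaries used pandas 2.3.3, numpy 2.4.6 and, for figures, matplotlib 3.10.9 under Python 3.11.15. Transcript GC content and gene positions came from GENCODE 44 and promoters from RefSeq.

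Members, roles and lists were chosen with earlier results of these data known. Genes named with full values were POLR1A, POLR1B, RRN3, TCOF1, FBL, DKC1, NCL and NPM1 and, in each comparison, up to 3 called genes with the largest change in each direction and no overlap between samples, and further names were chosen after their values were seen. Same-numbered samples deviated together in every pair (correlation of deviations above 0.1) for E1A in HCT116 oxpl-R (0.116 to 0.804), oxaliplatin under E1A in HCT116 oxpl-R (0.471 to 0.572) and the lines under oxaliplatin (0.154 to 0.27), and not in the other 7 comparisons of 2 groups.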

Additional observations from a re-analysis of the deposited data

Results flagged for a closer look

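In 3 of the 60 genes the oxaliplatin effect differed between the lines by edgeR's interaction term (effect in HCT116 oxpl-R minus effect in HCT116, 3 samples in each of 4 groups). The difference in log2FC was 1.27 for NPM1 (adjusted p = 0.0326), 1.17 for POLR1C (adjusted p = 0.013) and -1.31 for TCOF1 (adjusted p = 0.00486). TCOF1 was lower in 3 of 3 treated HCT116 oxpl-R samples than in any control sample of that line. With 1 sample left out at a time, 1 to 6 of the 60 genes differed. The 3 genes are 5.0% of the 60, near the 4.61% of well expressed genes of the count table.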

How the results depend on the processing

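Counts of called genes among the 60 are given here. With 1 sample left out at a time they ran from 9 to 41 for oxaliplatin in HCT116, 1 to 2 in HCT116 oxpl-R, 1 to 6 for the difference between the lines, 7 to 20 for E1A in HCT116, 0 to 6 for E1A under oxaliplatin in HCT116 oxpl-R, 1 to 20 for oxaliplatin under E1A in HCT116, 0 to 4 for the same in HCT116 oxpl-R, 0 to 8 for E1A by oxaliplatin in HCT116, 20 to 36 between the untreated lines and 8 to 22 under oxaliplatin, and stayed at 0 to 0 for the other 4 comparisons. Sample numbers were also fitted as a replicate block. The block gave 11 genes for oxaliplatin in HCT116 (5 with the GC trend removed as well) and 1 for E1A in HCT116 (1 with the GC trend). For oxaliplatin under E1A in HCT116 oxpl-R, where same-numbered samples deviated together, it gave 9 (13 with the GC trend). The block with the GC trend gave 7 for oxaliplatin in HCT116 oxpl-R. The labels do not say that the numbers pair the samples. In the comparisons where same-numbered samples deviated together the block changed no other count by over 1.5 times. All 24 samples in 1 fit gave 0 genes for E1A in HCT116, 2 for oxaliplatin under E1A in HCT116, 1 for the same in HCT116 oxpl-R, 18 between the untreated lines and 22 under oxaliplatin. Oxaliplatin under E1A in HCT116 oxpl-R had 4 genes with DESeq2, 1 with filterByExpr, 1 on the second table and 4 with the GC trend removed. With the GC and length trend removed, oxaliplatin in HCT116 had 12. Without the third HCT116 oxpl-R sample of every group the counts were 2 for oxaliplatin, 2 for E1A, 2 for E1A under oxaliplatin and 6 for oxaliplatin under E1A in that line. The GC trend fits and the removal of the third samples were chosen after seeing the data. Of the named genes' values under alternatives, 338 kept their direction and side of the threshold, 89 kept their direction and lost the call, and 0 reversed. The cause of these changes was not tested.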
